A study of Mus musculus with 12 samples.

Results

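The genes described here make cholesterol and fatty acids, control that synthesis, or carry cholesterol out of the cell. They are 39 of the 48663 gene rows of the count table, chosen by name and followed in all 4 groups of sorted mouse T cells. In order of their roles they are 8 genes of the mevalonate and isoprenoid steps, 11 of the steps from squalene to cholesterol, 6 SREBP regulators with a sterol carrier, 9 of fatty acid synthesis and 5 of the LXR branch, which is reported apart. All 39 had counts in at least 1 group.

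The groups hold 3 RNA sequencing libraries each, all from C57BL/6 mice that carry loxP-flanked alleles of Lrf, which encodes a zinc finger transcription factor. Control mice lacked the Cd4-Cre transgene (Cd4 Cre- Lrf fl/fl) and knockout (KO) mice carried it (Cd4 Cre+ Lrf fl/fl). Cd4-Cre deletes in developing T cells, so the alleles of other cells of the KO mice need not be changed. IELp, the precursors of intraepithelial lymphocytes in the thymus, came from both genotypes and were sorted as TCRβ+ CD4- CD8α- cells with CD122 and H-2Kb, high CD5 and PD-1, and no CD44. CD8αα T cells, sorted as CD45+ TCRβ+ CD4- CD8α+ CD8β- cells, were intraepithelial lymphocytes (IELs) from control mice and splenocytes from KO mice, with 40000 cells sorted for each sample. The labels give no age, and do not say whether each replicate is another animal. The p-values therefore speak of the spread among these libraries alone, and that spread may be technical.

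Each library held between 13432598 and 19947734 counts in genes, and the 39 members took between 0.228% and 0.436% of them. Zbtb7a, the gene of LRF, stood at 77.0, 68.5 and 80.7 CPM (counts scaled to a common total of gene counts) in control IELp and at 50.8, 43.8 and 42.0 CPM in KO IELp, without overlap (log2 change -0.71 ± 0.10, adjusted p = 1.56e-04 by edgeR). Here and below, a log2 change is the fitted log2 fold change ± its SE, and a named group order such as IELs against control IELp gives its direction. Control IELs held 114, 119 and 101 CPM and KO spleen cells 61.4, 59.1 and 63.4 CPM of Zbtb7a. T cell markers were present in all 4 groups. Itgae and Gzmb are markers of intraepithelial T cells. Itgae reached 3774, 3857 and 3695 CPM in control IELs against 52.8, 46.0 and 45.4 CPM in KO spleen cells. Gzmb reached 14979.8, 14532 and 14996 CPM in control IELs against 45.8, 42.8 and 34.0 CPM in KO spleen cells. Of the 5 such markers tested, edgeR called 4 lower in KO spleen cells than in IELs and did not call 1. Set against control IELp, 4 of the 5 rose in IELs and 1 fell (log2 change -0.99). Markers of earlier double-positive thymocytes summed to 20.5 to 30.9 CPM in control IELp and 21.7 to 25.2 CPM in KO IELp, with Dntt the highest of them. In the IEL libraries their sum was 0 to 0.0614 CPM, and in the KO spleen libraries 6.35 to 7.67 CPM.

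Cholesterol is built from acetyl-CoA through mevalonate, isoprenoids and squalene. When sterols run low in the membrane of the endoplasmic reticulum, the escort protein SCAP carries SREBP proteins to the Golgi, where they are cleaved into active transcription factors that switch on these genes, and INSIG proteins hold SCAP back when sterols are plentiful. The LXR receptors answer the opposite state: bound by oxysterols, they switch on genes that export cholesterol and limit its uptake. Activated and dividing T cells are known to raise SREBP-driven synthesis to build new membrane.

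Control IELs held more transcript of most cholesterol synthesis genes than control IELp, groups of 1 genotype that differ in stage and tissue. Of the 19 genes of the pathway steps, 16 were higher in IELs, 0 were lower and 3 did not pass the test, with a median log2 fold change of 1.98 against -0.0099 for all genes tested. Of all 38 members tested, 27 were higher and 6 lower (edgeR quasi-likelihood test, Benjamini-Hochberg adjusted over 14878 genes, where 31.9% were called higher and 32.9% lower). At least 2-fold higher were 21 members, against 14.0% of all genes. The fitted fold changes scale libraries by TMM factors, which here puts them a median of 0.23 above the log2 ratio of the CPM printed below (-0.12 and 0.11 in the 2 comparisons of KO spleen cells, 0.02 between IELp groups). The sample numbers of thymic and CD8αα libraries form separate blocks, so processing that differed between the blocks, if any, and the cell type cannot be told apart. In bulk RNA, fewer cells of a type and less RNA per cell cannot be told apart either.

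The mevalonate and isoprenoid steps opened this pattern. Hmgcs1, the HMG-CoA synthase that commits acetyl-CoA to the pathway, stood at 99.6, 98.4 and 106 CPM in control IELp, 118, 118 and 133 in KO IELp, 300.2, 294 and 347 in control IELs and 88.5, 87.9 and 86.8 in KO spleen cells. All 3 IEL libraries lay far above the 9 others, and the difference from control IELp was large against the spread (log2 change 1.86 ± 0.08, adjusted p = 7.42e-09 by edgeR). Acat2, the thiolase that joins acetyl-CoA units, stood at 36.1, 37.3 and 31.96 CPM in control IELp, 37.5, 36.2 and 43.2 in KO IELp, 86.8, 88.4 and 104 in control IELs and 33.9, 31.7 and 33.9 in KO spleen cells (log2 change 1.63 ± 0.10, IELs against control IELp). Mvk, mevalonate kinase, stood at 6.96, 7.64 and 6.48 CPM in control IELp, 4.09, 4.82 and 4.38 in KO IELp, 24.4, 23.5 and 25.3 in control IELs and 6.22, 5.51 and 6.85 in KO spleen cells. Its IEL libraries again stood above all others (log2 change 2.02 ± 0.13, adjusted p = 2.10e-07 by edgeR), and its lowest values were those of KO IELp. Pmvk, which adds the next phosphate, stood at 18.2, 15.9 and 14.6 CPM in control IELp, 16.6, 17.8 and 16.6 in KO IELp, 26.5, 26.7 and 25.4 in control IELs and 10.6, 10.4 and 10.7 in KO spleen cells. It showed a smaller IEL excess (log2 change 0.92 ± 0.12) and its lowest values in KO spleen cells. Mvd, which removes a carboxyl group to give isopentenyl diphosphate, stood at 20.9, 15.4 and 16.4 CPM in control IELp, 25.9, 30.3 and 26.6 in KO IELp, 52.5, 55.3 and 69.4 in control IELs and 56.0, 49.1 and 49.8 in KO spleen cells. Here the KO spleen libraries overlapped those of IELs, while the gene was higher in IELs than in control IELp (log2 change 1.98 ± 0.15).

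Idi1 and Fdps end this stretch at low counts. Idi1, which isomerises isopentenyl diphosphate, stood at 1.98, 2.00 and 1.91 CPM in control IELp, 1.52, 1.32 and 1.90 in KO IELp, 12.3, 13.4 and 16.7 in control IELs and 1.65, 1.69 and 1.64 in KO spleen cells (log2 change 3.07 ± 0.20, adjusted p = 2.14e-07 by edgeR, IELs against control IELp). Fdps, farnesyl diphosphate synthase, had means of 1.14 ± 0.374 CPM in control IELp and 7.32 ± 2.55 CPM in control IELs (SD, n = 3), and was also higher (log2 change 2.88 ± 0.34). Both are uncertain, as is Acat2 (19.8%), because 22.6% of the Idi1 transcript and 76.8% of the Fdps transcript have a near-identical copy elsewhere (at least 98% identity over at least 76 bases) and reads that map to more than 1 place were not counted. Ggps1, which makes the geranylgeranyl chain used to anchor small GTPases rather than cholesterol, did not pass (47.7 ± 1.10 CPM in control IELp and 44.9 ± 2.81 CPM in control IELs, log2 change 0.14 ± 0.09, adjusted p = 0.188 by edgeR).

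The steps from squalene to cholesterol held the largest differences. Sqle, the squalene epoxidase often named a control point of the pathway (chr15:59315077-59331192, mm10, plus strand), stood at 8.87, 14.9 and 11.6 CPM in control IELp, 11.1, 6.68 and 9.02 in KO IELp, 161, 158 and 228 in control IELs and 5.46, 3.92 and 6.48 in KO spleen cells. The lowest IEL library held 158 CPM and the highest of the other 9 held 14.9 CPM, and the fitted difference from control IELp was the largest of the pathway (log2 change 4.18 ± 0.20, adjusted p = 1.70e-08 by edgeR). Fdft1, squalene synthase, stood at 30.5, 28.2 and 25.5 CPM in control IELp, 27.5, 23.9 and 23.9 in KO IELp, 94.4, 81.9 and 103 in control IELs and 16.3, 20.4 and 17.0 in KO spleen cells (log2 change 1.96 ± 0.11). Lss, which closes the sterol rings to lanosterol, stood at 18.4, 18.1 and 20.8 CPM in control IELp, 22.2, 20.1 and 20.5 in KO IELp, 141, 130.2 and 139.7 in control IELs and 20.5, 29.5 and 27.4 in KO spleen cells. The IEL libraries of Lss agreed closely and gave the smallest adjusted p of the members (log2 change 3.08 ± 0.09, adjusted p = 4.62e-10 by edgeR). Cyp51, the lanosterol demethylase, stood at 48.5, 39.3 and 46.3 CPM in control IELp, 37.1, 37.3 and 43.4 in KO IELp, 212, 217 and 272 in control IELs and 22.3, 29.9 and 23.3 in KO spleen cells (log2 change 2.62 ± 0.12). Msmo1, the sterol methyl oxidase, stood at 25.0, 25.3 and 24.4 CPM in control IELp, 24.2, 22.4 and 22.6 in KO IELp, 141, 147 and 190.1 in control IELs and 27.2, 28.3 and 27.5 in KO spleen cells (log2 change 2.91 ± 0.12). For both, the IEL libraries lay above the other 9 and replicate 3 was the highest.

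Among the later enzymes, 4 were higher in IELs and 2 did not pass. Nsdhl, a sterol dehydrogenase, stood at 27.8, 28.0 and 26.7 CPM in control IELp, 28.6, 31.5 and 26.8 in KO IELp, 50.4, 50.4 and 61.5 in control IELs and 31.8, 27.2 and 26.4 in KO spleen cells (log2 change 1.20 ± 0.11). Hsd17b7, its partner reductase, stood at 2.59, 4.35 and 3.24 CPM in control IELp, 0.924, 2.29 and 2.74 in KO IELp, 24.3, 26.5 and 26.2 in control IELs and 3.06, 4.02 and 4.54 in KO spleen cells (log2 change 3.14 ± 0.18, adjusted p = 9.13e-08 by edgeR). Outside IELs, Hsd17b7 reached at most 4.54 CPM. Sc5d, a sterol desaturase, stood at 32.3, 31.8 and 32.3 CPM in control IELp, 34.1, 32.9 and 44.6 in KO IELp, 96.5, 105 and 126 in control IELs and 34.3, 38.3 and 41.4 in KO spleen cells (log2 change 2.00 ± 0.11). Dhcr7, which makes cholesterol in a last step, stood at 38.6, 41.2 and 38.6 CPM in control IELp, 42.3, 39.5 and 35.8 in KO IELp, 68.3, 57.7 and 75.0 in control IELs and 26.4, 29.8 and 24.6 in KO spleen cells (log2 change 0.99 ± 0.11, adjusted p = 1.21e-05 by edgeR). In both, IEL libraries again exceeded all 9 others. The sterol reductase Tm7sf2 (7.40 ± 1.12 CPM in control IELp, 6.43 ± 0.670 CPM in control IELs; log2 change 0.03 ± 0.19, adjusted p = 0.903 by edgeR) and the sterol isomerase Ebp (45 ± 5.84 CPM, 42.8 ± 2.297 CPM; log2 change 0.16 ± 0.11, adjusted p = 0.241 by edgeR) were the members of these steps that did not pass. Part of the exon bases of Fdps (26.7%), Fdft1 (18.3%), Scap (13.2%), Hmgcs1 (12.1%), Tm7sf2 (12.1%), Idi1 (9.21%) and Acss2 (9.12%), and at most 5.44% in any other member, lies under exons of a neighbouring gene, and the library kit does not mark strand, so reads from these stretches cannot be told apart.

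**Figure D1:**
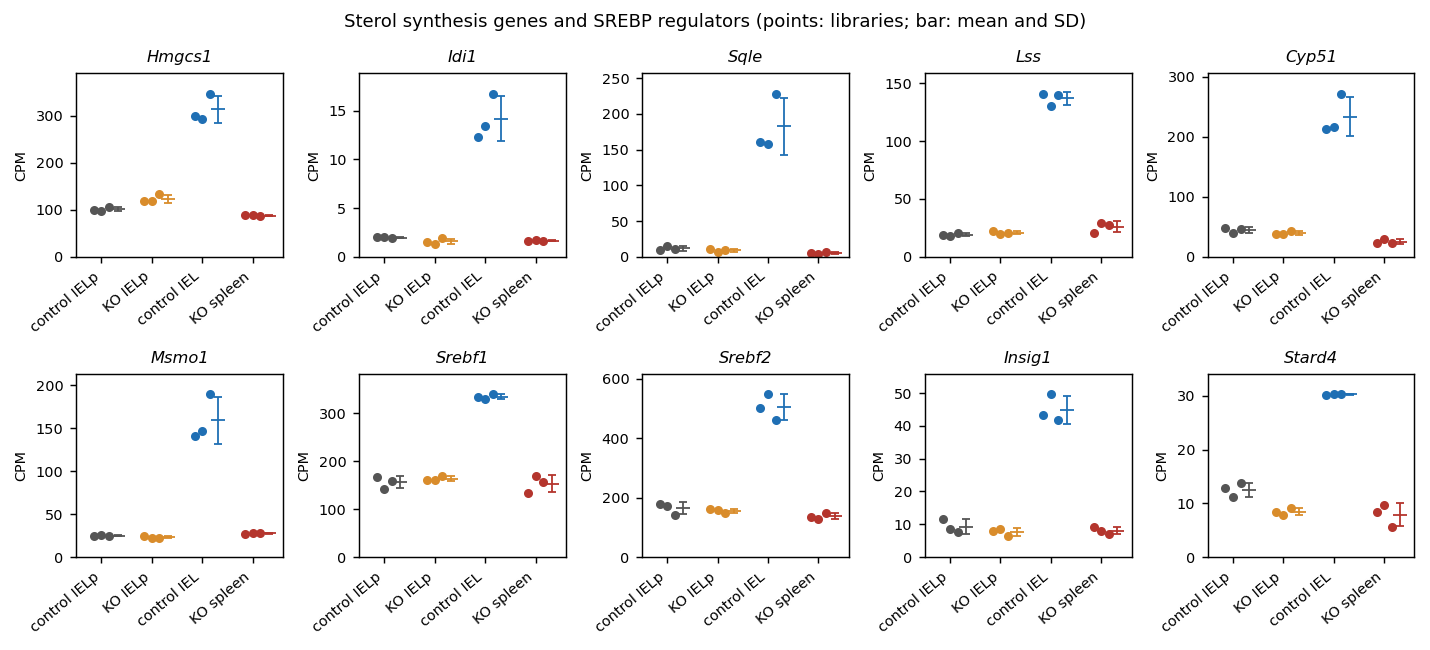
CPM (vertical axes) of 10 sterol synthesis genes and SREBP regulators in the 4 groups, each point 1 library and each bar the mean and SD of 3 libraries. In each panel the 3 control IEL points lie above the 9 others, as for Sqle with IEL libraries of 161, 158 and 228 CPM.

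Because these genes rose together, their promoters are shown as the stretch of 250 bases before the start, read from RefSeq on GRCm38.p6 (31 of the 39 members had an entry). Capitals mark the sterol regulatory element TCACNCCAC, the SREBP site, and the NF-Y box CCAAT, a site of a known partner of SREBP, on either strand (ATTGG is the box on the other strand). Shown are Hmgcs1 (chr13:119690101-119690350, plus strand), which alone among the members held the sterol regulatory element, the 4 other pathway genes with the largest differences among those with an entry, which are Hsd17b7 (chr1:169969206-169969455, minus strand), Lss (chr10:76531355-76531604, plus), Idi1 (chr13:8885356-8885605, plus) and Msmo1 (chr8:64733579-64733828, minus), and, for contrast, the LXR target Abca1 (chr4:53159896-53160145, minus).
Hmgcs1: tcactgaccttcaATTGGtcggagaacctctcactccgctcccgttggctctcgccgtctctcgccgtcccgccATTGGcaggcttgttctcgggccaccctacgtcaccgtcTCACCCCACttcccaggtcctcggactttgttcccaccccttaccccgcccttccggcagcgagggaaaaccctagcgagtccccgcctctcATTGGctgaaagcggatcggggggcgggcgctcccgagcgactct
Hsd17b7: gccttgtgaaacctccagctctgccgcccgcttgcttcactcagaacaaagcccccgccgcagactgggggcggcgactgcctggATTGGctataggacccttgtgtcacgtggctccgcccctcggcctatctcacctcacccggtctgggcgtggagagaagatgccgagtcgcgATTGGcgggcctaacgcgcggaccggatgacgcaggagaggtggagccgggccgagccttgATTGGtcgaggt
Lss: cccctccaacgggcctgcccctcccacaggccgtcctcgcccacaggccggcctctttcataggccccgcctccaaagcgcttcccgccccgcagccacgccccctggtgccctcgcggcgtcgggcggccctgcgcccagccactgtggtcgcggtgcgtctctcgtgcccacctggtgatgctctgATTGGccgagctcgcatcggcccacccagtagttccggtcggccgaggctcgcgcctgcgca
Idi1: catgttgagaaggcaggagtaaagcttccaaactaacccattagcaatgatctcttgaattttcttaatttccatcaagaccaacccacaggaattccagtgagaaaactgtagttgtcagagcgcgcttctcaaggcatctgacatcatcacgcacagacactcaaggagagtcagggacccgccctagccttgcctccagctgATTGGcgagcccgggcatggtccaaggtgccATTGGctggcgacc
Msmo1: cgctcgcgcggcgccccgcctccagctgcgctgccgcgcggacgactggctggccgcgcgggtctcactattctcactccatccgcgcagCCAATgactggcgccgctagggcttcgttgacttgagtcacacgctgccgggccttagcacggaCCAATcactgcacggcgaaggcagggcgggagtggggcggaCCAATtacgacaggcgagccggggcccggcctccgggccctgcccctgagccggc
Abca1: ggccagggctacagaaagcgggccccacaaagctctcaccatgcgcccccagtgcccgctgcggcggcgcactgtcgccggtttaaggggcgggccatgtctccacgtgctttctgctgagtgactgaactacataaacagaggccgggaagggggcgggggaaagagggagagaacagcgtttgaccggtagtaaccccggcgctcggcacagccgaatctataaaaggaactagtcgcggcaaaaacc
The element in Hmgcs1 ends 129 bases before the start. Exact matches to it were found in 111 of 8939 genes tested in all comparisons that have an entry (1.24%), so they are rare anywhere. The NF-Y box was in 15 of the 16 pathway-step genes with an entry (93.8%), against 40.5% of the tested genes, in 2 of 6 fatty acid synthesis genes and in 1 of 4 LXR branch genes. The Sp1 box GGGCGG was in 14 of the 16 (87.5%), against 63.6% of the tested genes. With 1 mismatch allowed, the sterol element matched 7 of the 16 (43.8%) and 25.6% of the tested genes, but also 2 of 4 LXR branch genes and 3 of 5 SREBP regulators, and 1 of 6 fatty acid genes. Abca1 held no NF-Y box in this window. A strict form of the LXR element DR4, with no mismatch allowed, was in none of the members' windows. It was in 1 of the 8939 tested genes (0.011%), so this search cannot show that the members lack LXR elements. All of these counts are matches of letters in 1 window per start and show neither binding nor a cause.

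By group means, most regulators of SREBP moved with the enzymes, except for the escort. Over deviations of the 12 libraries from their group means, correlations with the mean of the pathway steps ran from -0.47 (Scap) to 0.27 (Srebf1). Srebf2, which encodes the SREBP that mainly drives cholesterol genes, stood at 179.9, 173 and 142 CPM in control IELp, 162, 157 and 147 in KO IELp, 501, 549.6 and 463 in control IELs and 136, 129.8 and 148 in KO spleen cells. The IEL libraries lay above all 9 others, and KO spleen cells were the lowest group by mean (log2 change 1.84 ± 0.10, adjusted p = 4.26e-08 by edgeR, IELs against control IELp). Srebf1, whose products favour fatty acid genes, stood at 167, 142 and 159 CPM in control IELp, 159.6, 161 and 169 in KO IELp, 333, 329 and 339.8 in control IELs and 134, 169 and 156 in KO spleen cells. Its IEL libraries were nearly equal to each other and the other 3 groups overlapped (log2 change 1.33 ± 0.07, adjusted p = 4.81e-08 by edgeR). Insig1, a sterol-sensing brake that is itself an SREBP target, stood at 11.7, 8.64 and 7.51 CPM in control IELp, 7.99, 8.49 and 6.33 in KO IELp, 43.2, 49.7 and 41.8 in control IELs and 9.27, 7.84 and 7.07 in KO spleen cells, again without overlap between IELs and the rest (log2 change 2.50 ± 0.16, adjusted p = 2.10e-07 by edgeR). Stard4, which carries sterols between membranes, stood at 12.8, 11.1 and 13.7 CPM in control IELp, 8.38, 7.83 and 9.18 in KO IELp, 30.1, 30.4 and 30.4 in control IELs and 8.47, 9.64 and 5.51 in KO spleen cells (log2 change 1.504 ± 0.12). Scap, the escort, went the other way, with 149 ± 4.44 CPM in control IELp and 86.3 ± 2.77 CPM in control IELs (log2 change -0.56 ± 0.07, adjusted p = 3.69e-05 by edgeR). Its 3 IEL libraries lay below the 9 others in CPM, which carry no TMM factors. Insig2, the other INSIG gene, was called higher by a small margin with overlapping libraries (log2 change 0.37 ± 0.12, adjusted p = 0.0235 by edgeR), and the call was lost without control IELp replicate 1 (0.25, adjusted p = 0.0832) or control IEL replicate 1 (0.32, adjusted p = 0.0841), and with limma on the authors' total-count scaling (0.14, adjusted p = 0.328).

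Set against all other libraries by CPM without TMM factors, 23 of the 37 members tested in every comparison had their 3 control IEL libraries above the 9 others. Of all genes, 15.6% did. The 23 members were 15 of the 19 pathway-step genes, 4 of 6 regulators, 4 of 7 tested fatty acid genes and 0 of 5 LXR branch genes. Below all others were 5 members, where 32.2% of genes were: Scap, Fasn, Abca1, Abcg1 and Mylip. This ranking was not repeated with TMM factors. The squalene to cholesterol genes summed to between 1023 and 1272 CPM in control IELs, against 279 to 286 in control IELp, 251 to 266 in KO IELp and 221 to 252 in KO spleen cells.

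Control IEL replicate 3 stood apart from its group. It lay above its group's mean in 17 of the 19 pathway-step genes, by 0.153 on the log2 scale on average, and it also held more gut epithelial transcript. All 14 epithelial markers had counts in the 3 IEL libraries together (1 was at 0 in replicate 2) and summed to 522, 575 and 726 CPM, where control IELp had 67.0 to 75.6 CPM and KO spleen cells 14.0 to 18.9 CPM. All 10 markers tested were higher in IELs than in control IELp, where 31.9% of all genes tested were. The largest part was Cdh1 (369, 421 and 400.3 CPM) and Epcam (123, 127 and 189 CPM), while Krt8 stood at 1.35, 1.54 and 22.6 CPM, Krt19 at 0.369, 0.129 and 22.0 CPM and Alpi at 0.184, 0.193 and 5.43 CPM. Without replicate 3, the counts were again 16 of 19 pathway steps higher and 27 members higher, with 5 lower, and the log2 fold change of Sqle was 3.98 and of Lss 3.07. The IEL libraries that remained in this fit still held 522 and 575 CPM of the epithelial markers. What epithelial transcript contributes to the pathway-step values was not tested.

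**Figure D2:**
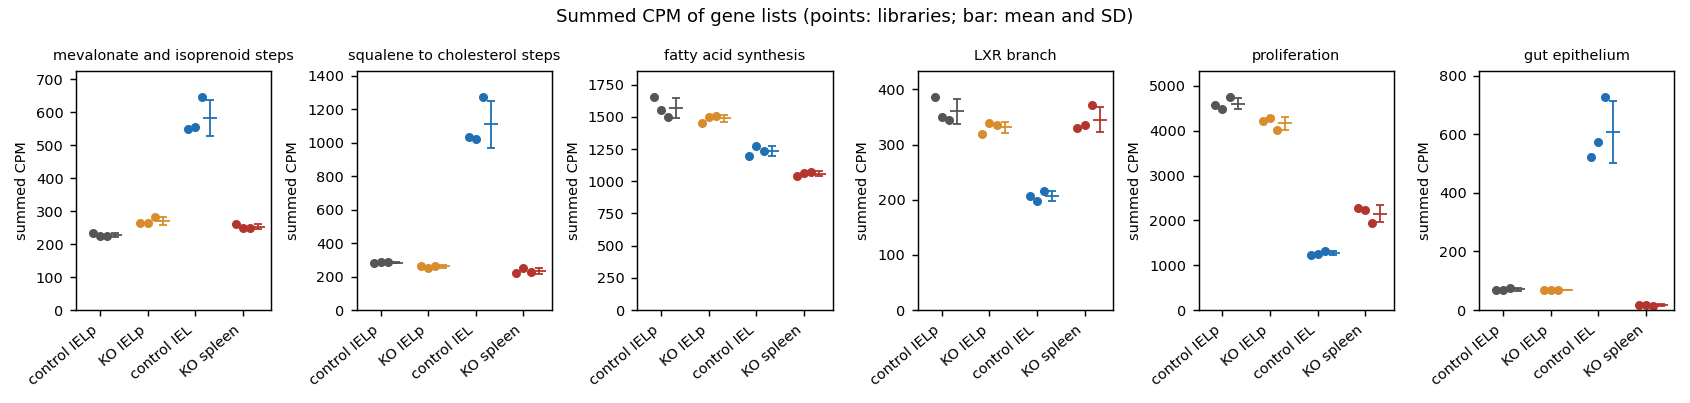
Summed CPM (vertical axes) of 4 member lists and of the proliferation and gut epithelium lists, each point 1 library and each bar the mean and SD of 3 libraries. The 2 cholesterol lists are highest in control IELs, the LXR branch and proliferation lists are lowest there, and control IEL replicate 3 is highest for gut epithelium at 726 CPM.

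Proliferation genes, which often move with sterol synthesis, went the other way here. All 20 on the list were lower in IELs than in control IELp, and their sum fell from 4496 to 4748 CPM in control IELp to 1234 to 1313 CPM in IELs. Machinery around SREBP was mixed to higher, with 7 of 12 tested genes of processing and sterol-linked degradation higher and 3 lower: Aup1, which recruits ubiquitin enzymes to the endoplasmic reticulum, stood at 283 ± 14.4 CPM against 124 ± 6.69 (log2 change 1.42 ± 0.07), and Rnf145, a sterol-linked ubiquitin ligase, fell (log2 change -0.74 ± 0.06). Genes of cholesterol storage and transport split into 8 higher and 6 lower of 20. Over all genes tested in this comparison, 31.9% were called higher and 32.9% lower. Scarb1, a receptor for high-density lipoprotein, fell from 39.6 ± 0.773 to 3.89 ± 0.251 CPM (log2 change -3.11 ± 0.13, adjusted p = 5.39e-09 by edgeR), and Sult2b1, which sulfates sterols, rose from 6.50 ± 0.336 to 21.0 ± 0.413 CPM (log2 change 1.92 ± 0.13). Of 14 genes that use isoprenoids, for protein prenylation, dolichol or ubiquinone, 2 were higher and 2 lower.

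Fatty acid synthesis did not move as a block. Of 8 genes tested in IELs against control IELp, 5 were higher, 2 lower and 1 did not pass, beside 31.9% higher and 32.9% lower of all genes. In CPM without TMM factors, the list summed to 1197 to 1271 CPM in IELs and 1501 to 1652 CPM in control IELp. Scd2 alone fell from a mean of 487 to 113 CPM, so this lower sum does not describe the list as a whole. Acss2, which turns acetate into acetyl-CoA, stood at 47.9, 48.3 and 42.3 CPM in control IELp, 24.4, 26.4 and 28.1 in KO IELp, 83.5, 80.0 and 92.1 in control IELs and 34.5, 43.5 and 55.1 in KO spleen cells. IELs were highest and KO IELp lowest, without overlap between any of these and control IELp (log2 change 1.11 ± 0.09, adjusted p = 1.44e-06 by edgeR). Elovl6, an elongase of saturated chains, stood at 28.1, 30.8 and 31.4 CPM in control IELp, 29.9, 32.6 and 30.4 in KO IELp, 59.8, 58.1 and 44.98 in control IELs and 27.2, 30.8 and 29.7 in KO spleen cells (log2 change 1.08 ± 0.12). Fads1, a desaturase of polyunsaturated chains, stood at 46.2, 42.6 and 38.96 CPM in control IELp, 25.3, 24.5 and 26.3 in KO IELp, 66.6, 65.1 and 62.0 in control IELs and 15.2, 13.6 and 16.7 in KO spleen cells, and its 4 groups did not overlap (log2 change 0.83 ± 0.09, adjusted p = 1.60e-05 by edgeR). Fads2, the desaturase that acts before it, was low, with 1.11 ± 0.513 CPM in control IELp and 2.61 ± 0.721 CPM in IELs (log2 change 1.46 ± 0.39, adjusted p = 0.00723 by edgeR). Acly, which makes acetyl-CoA from citrate, rose slightly from 611 ± 8.85 to 676 ± 36.2 CPM (log2 change 0.38 ± 0.06).

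The desaturase of saturated chains went the other way. Scd2 (chr19:44293674-44306864, mm10, plus strand), a stearoyl-CoA desaturase that makes monounsaturated fatty acids, stood at 497, 496 and 468 CPM in control IELp, 494, 507 and 498 in KO IELp, 109, 124 and 105 in control IELs and 139, 123 and 131 in KO spleen cells. Both thymic groups were high and both CD8αα groups low, with no overlap (log2 change -1.88 ± 0.08, adjusted p = 5.97e-09 by edgeR). Fasn, the fatty acid synthase itself, had 337 ± 60.2 CPM in control IELp and 225 ± 32.8 CPM in IELs. Its call (log2 change -0.35 ± 0.13, adjusted p = 0.036 by edgeR) was lost without control IELp replicate 1 (-0.20, adjusted p = 0.174) or 2 (-0.39, adjusted p = 0.0516), or without control IEL replicate 1 (-0.30, adjusted p = 0.104) or 3 (-0.26, adjusted p = 0.0691). Acaca, acetyl-CoA carboxylase, did not pass (log2 change 0.20 ± 0.20, adjusted p = 0.407 by edgeR), and 64.3% of its transcript has a near-identical copy elsewhere, so its low counts are uncertain. Scd1 held 3 counts in all control IELp and 1 count in all IEL libraries and was not tested here.

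**Figure D3:**
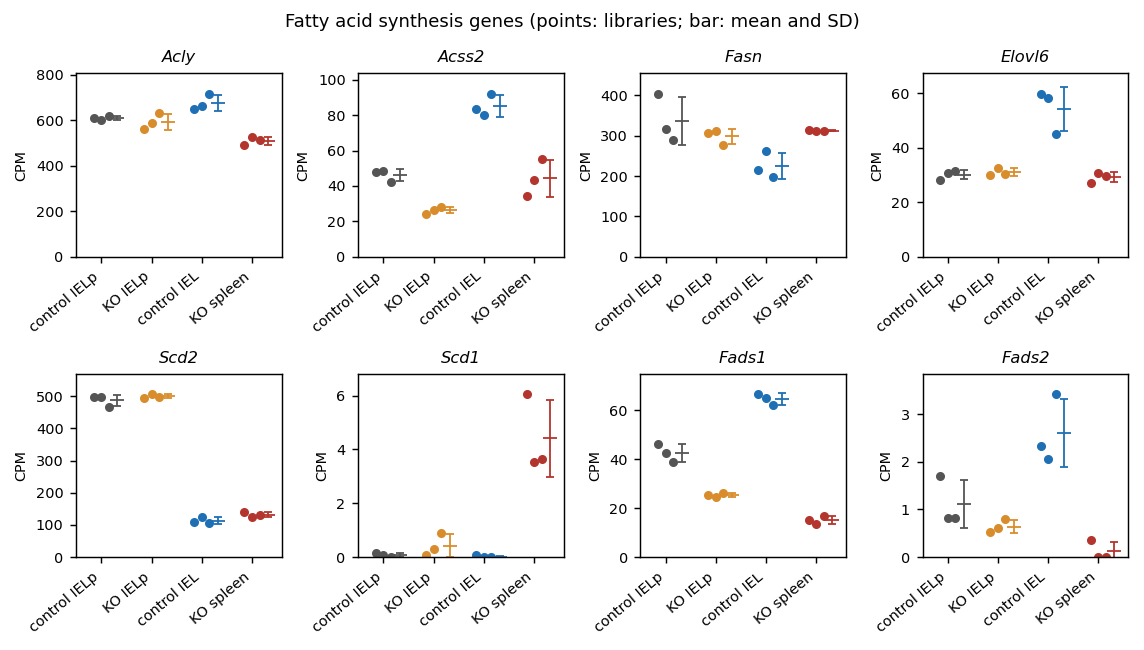
CPM (vertical axes) of 8 fatty acid synthesis genes in the 4 groups, each point 1 library and each bar the mean and SD of 3 libraries. Acss2, Elovl6 and Fads1 are highest in control IELs, Scd2 is high in both IELp groups only, and Scd1 has counts above 1 CPM only in KO spleen cells, at 6.07, 3.55 and 3.65 CPM.

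Of the 5 LXR branch genes, 3 were lower in IELs than in control IELp, 1 was higher and 1 did not pass. Of all genes tested, 32.9% were called lower and 31.9% higher. Abca1, the transporter that exports cholesterol to lipid-poor apolipoproteins (chr4:53030787-53159895, mm10, minus strand), stood at 98.1, 76.2 and 64.2 CPM in control IELp, 61.5, 63.9 and 69.2 in KO IELp, 0, 0.257 and 0.163 in control IELs and 38.1, 35.5 and 34.2 in KO spleen cells. IELs held 7 counts in all 3 libraries together, against 3605 in control IELp (log2 change -8.85 ± 0.34, adjusted p = 3.52e-09 by edgeR); without control IEL replicate 2 the log2 fold change was -9.48. Abcg1, a partner exporter, stood at 91.3, 86.5 and 85.0 CPM in control IELp, 77.6, 85.3 and 70.3 in KO IELp, 35.0, 31.5 and 24.0 in control IELs and 67.2, 75.8 and 72.1 in KO spleen cells (log2 change -1.31 ± 0.13, adjusted p = 5.52e-06 by edgeR). Mylip, a ubiquitin ligase that removes lipoprotein receptors, stood at 59.4, 59.8 and 54.0 CPM in control IELp, 47.0, 55.8 and 58.4 in KO IELp, 37.6, 34.8 and 37.3 in control IELs and 93.6, 96.4 and 103 in KO spleen cells (log2 change -0.43 ± 0.09, adjusted p = 0.00167 by edgeR). For all 3 targets the IEL libraries lay below the 9 others. The receptor genes gave smaller differences. Nr1h2, which encodes LXRβ, stood at 136, 125 and 139.7 CPM in control IELp, 130.4, 131 and 136 in KO IELp, 135, 131 and 153 in control IELs and 127, 126 and 159.8 in KO spleen cells, with overlap between all groups. It was called slightly higher in IELs (log2 change 0.29 ± 0.08, adjusted p = 0.009 by edgeR), which depended on the scaling, since limma on the authors' total-count scaling gave 0.06 (adjusted p = 0.538). Nr1h3, which encodes LXRα, stood at 0.751, 2.12 and 1.62 CPM in control IELp, 2.90, 3.19 and 2.11 in KO IELp, 0.369, 0.643 and 1.25 in control IELs and 3.31, 2.22 and 1.71 in KO spleen cells, and did not pass (log2 change -0.74 ± 0.53, adjusted p = 0.237 by edgeR).

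Other known LXR targets were split. Of 10 partners and other targets, 4 were higher and 4 lower in IELs, beside 31.9% and 32.9% of all genes tested. Pltp, a phospholipid transfer protein, rose from 18.4 ± 1.40 to 288 ± 26.4 CPM (log2 change 4.20 ± 0.10, adjusted p = 1.14e-10 by edgeR), and Ttc39b rose from 20.5 ± 5.93 to 153 ± 20.4 CPM (log2 change 3.13 ± 0.18). Smpdl3a, a phosphodiesterase, rose from 125 ± 8.91 to 330.4 ± 12.9 CPM. Lpcat3, which remodels phospholipids, fell from 129 ± 3.55 to 60.1 ± 4.91 CPM (log2 change -0.87 ± 0.08). The branch thus split by target, with the cholesterol exporters low and Pltp, Ttc39b and Smpdl3a high in the same libraries.

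**Figure D4:**
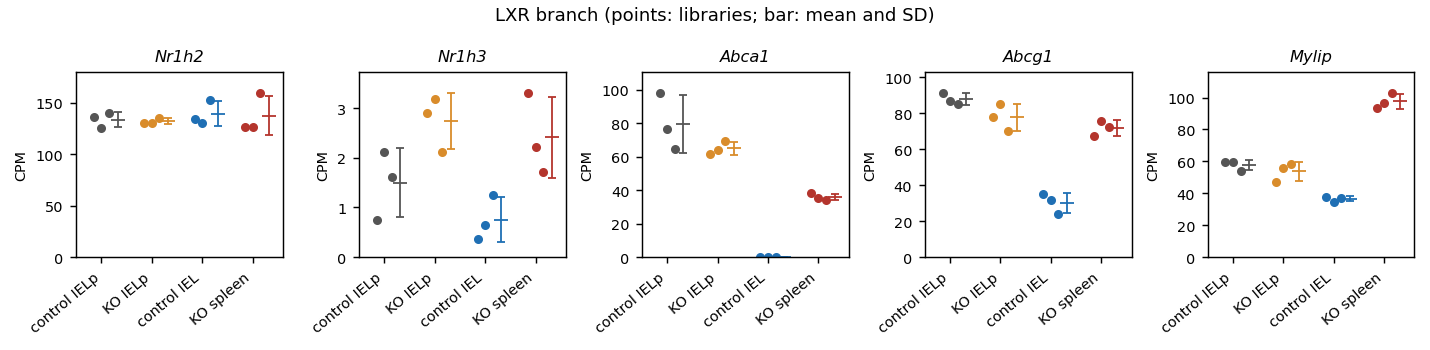
CPM (vertical axes) of the 5 LXR branch genes in the 4 groups, each point 1 library and each bar the mean and SD of 3 libraries. Abca1, Abcg1 and Mylip are lowest in control IELs, where Abca1 has 0, 0.257 and 0.163 CPM, and Nr1h2 lies in 1 range in all groups.

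The same control IELs were set beside CD8αα cells of KO spleen. Genotype and tissue differ together in this comparison and cannot be told apart, and the control IEL libraries are shared with the comparison above, so the values are given side by side and not as separate support. Of 39 members tested, 27 were lower and 7 higher in KO spleen cells (29.2% and 29.1% of 14875 genes), and 24 were at least 2-fold lower, against 12.9% of genes. Among the 19 pathway steps 18 were lower and 1, Ggps1, was higher, with a median log2 fold change of -1.96 against 0.0045 for all genes.

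Sqle had the largest fall (log2 change -5.25 ± 0.20, adjusted p = 1.69e-08 by edgeR), followed by Cyp51 (log2 change -3.33 ± 0.14) and Idi1 (log2 change -3.20 ± 0.20). Hmgcs1 fell by 1.96 on the log2 scale and Lss by 2.53. Tm7sf2 and Ebp, which did not pass between the control groups, were lower here (log2 change -1.11 ± 0.27, adjusted p = 0.00506 by edgeR for Tm7sf2, log2 change -0.55 ± 0.11, adjusted p = 0.0018 by edgeR for Ebp). Mvd differed little and its libraries overlapped (log2 change -0.31 ± 0.12, adjusted p = 0.0412 by edgeR). The Mvd call was lost without control IEL replicate 3 (-0.17, adjusted p = 0.147) or KO spleen replicate 2 (-0.28, adjusted p = 0.126) or 3 (-0.27, adjusted p = 0.133), and with limma on the authors' total-count scaling (-0.18, adjusted p = 0.185). The Ggps1 call (log2 change 0.31 ± 0.09, adjusted p = 0.0145 by edgeR) was lost without control IEL replicate 1 (0.25, adjusted p = 0.0740) or KO spleen replicate 1 (0.28, adjusted p = 0.0547). Without control IEL replicate 3, 17 of 19 pathway steps were lower. Srebf2 (log2 change -1.99 ± 0.08, adjusted p = 2.08e-08 by edgeR), Srebf1 (log2 change -1.25 ± 0.08), Insig1 (log2 change -2.59 ± 0.14) and Stard4 (log2 change -2.05 ± 0.18) fell too. Scap did not pass (log2 change 0.10 ± 0.08, adjusted p = 0.314 by edgeR), nor did Insig2 (log2 change -0.32 ± 0.13, adjusted p = 0.0647 by edgeR), although Insig2 was called lower without KO spleen replicate 3 (-0.45, adjusted p = 0.00959). With limma on the authors' total-count scaling, Scap (0.21, adjusted p = 0.0335) and, among the fatty acid genes, Scd2 (0.22, adjusted p = 0.0403) were called higher.

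In the fatty acid list 5 of 9 were lower and 2 higher, beside 29.2% and 29.1% of all genes tested. Fads1 fell from 64.5 ± 2.35 CPM in IELs to 15.2 ± 1.53 CPM in KO spleen cells (log2 change -2.21 ± 0.10, adjusted p = 6.07e-08 by edgeR), and Acss2, Elovl6 and Acly were lower as well (-1.07, -1.01 and -0.53 on the log2 scale). Fads2 had 7 counts in all KO spleen libraries together (log2 change -4.36 ± 0.79, adjusted p = 8.88e-04 by edgeR), all in replicate 1, without which the log2 fold change was -8.48. Fasn was higher by a small amount (log2 change 0.35 ± 0.09, adjusted p = 0.0096 by edgeR), and Scd2 did not pass (log2 change 0.10 ± 0.09, adjusted p = 0.354 by edgeR). Scd1, the desaturase best known from liver and fat, held 237 counts in KO spleen cells against 1 in IELs, a ratio of 228 after scaling to total gene counts, with an exact 95% interval of 40.5 to 9033, which covers counting error only (log2 change 7.25 ± 0.67, adjusted p = 9.09e-06 by edgeR; 9.21 without control IEL replicate 1).

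The LXR branch was higher in 4 of 5 genes, where 29.1% of all genes tested were. Abca1 stood at 38.1, 35.5 and 34.2 CPM in KO spleen cells where IELs had nearly none (log2 change 7.82 ± 0.31, adjusted p = 2.09e-08 by edgeR; 8.47 without control IEL replicate 2). Mylip (log2 change 1.30 ± 0.08, adjusted p = 4.13e-07 by edgeR) and Abcg1 (log2 change 1.13 ± 0.13, adjusted p = 4.85e-05 by edgeR) were higher with no overlap. Nr1h3 was higher at low counts (log2 change 1.55 ± 0.48, adjusted p = 0.0181 by edgeR). Its call was lost without control IEL replicate 1 (1.22, adjusted p = 0.0679) or 2 (1.43, adjusted p = 0.0621) or KO spleen replicate 1 (1.25, adjusted p = 0.0865), and without control IEL replicate 3 the value was 2.15. Nr1h2 did not pass (log2 change -0.14 ± 0.10, adjusted p = 0.255 by edgeR), but was called lower without KO spleen replicate 3 (-0.24, adjusted p = 0.0460).

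Markers of other cells also had counts in the KO spleen libraries. The 12 macrophage and other myeloid markers summed to 50.3 to 81.4 CPM there, against 57.3 to 62.0 CPM in IELs and 23.0 to 26.2 CPM in KO IELp, and all 12 had counts, while 5, among them Adgre1, C1qa and C1qb, were at 0 in IELs. Of the 8 tested against IELs, 6 were higher and 2 lower in KO spleen cells, beside 29.1% and 29.2% of all genes tested. Lyz2 stood at 13.5, 20.0 and 3.50 CPM and C1qb at 6.52, 6.88 and 2.53 CPM. The lower ones were Itgam, with 0.602, 0.688 and 0.744 CPM against 28.3, 29.5 and 30.2 CPM in IELs, and Cd68, with 5.56, 4.08 and 3.28 CPM against 7.56, 7.66 and 7.88 CPM. The 5 B cell markers summed to 80.9 to 94.8 CPM, against 34.5 to 61.3 CPM in IELs, with Ms4a1 at 13.7, 11.8 and 12.5 CPM. Macrophages are known to express Nr1h3 and Abca1, and the part of these cells in the values of Abca1, Nr1h3 and Scd1 was not tested. Adipocyte markers summed to at most 0.447 CPM and hepatocyte markers to at most 0.602 CPM in any library. Of the proliferation genes, 14 of 20 were higher and 1 lower than in IELs, beside 29.1% and 29.2% of all genes tested.

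KO spleen cells and KO IELp share the genotype and differ in stage and tissue. Between them the members split, with 10 higher and 11 lower of 38 tested (22.6% and 22.4% of 14880 genes), and most differences were small: the 19 pathway steps gave 6 higher and 7 lower with a median log2 fold change of 0.14 against -0.0030 for all genes. With limma on the authors' total-count scaling, which moves the median of all genes by -0.10, the split was 6 higher and 13 lower. Mvd (log2 change 1.02 ± 0.10, adjusted p = 2.42e-06 by edgeR) and Hsd17b7 (log2 change 1.05 ± 0.35, adjusted p = 0.0276 by edgeR) were higher by about the 2-fold mark, and Msmo1 was slightly higher (log2 change 0.37 ± 0.10). Tm7sf2 (log2 change -0.97 ± 0.25, adjusted p = 0.00718 by edgeR), Pmvk (log2 change -0.57 ± 0.13), Cyp51 (log2 change -0.53 ± 0.13), Dhcr7 (log2 change -0.42 ± 0.11) and Hmgcs1 (log2 change -0.38 ± 0.07) were lower. Srebf1, Srebf2, Insig1, Insig2 and Stard4 did not pass, with log2 fold changes between -0.06 and 0.20, and Scap was lower (log2 change -0.37 ± 0.08, adjusted p = 0.00146 by edgeR). Srebf2 was called lower with limma on the total-count scaling (-0.17, adjusted p = 0.0390).

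Many of the small calls rested on single libraries. The count of higher members fell from 10 to 6 without KO IELp replicate 3. Sqle (log2 change -0.65 ± 0.23, adjusted p = 0.0348 by edgeR) was not called without KO IELp replicate 1 or 3 or KO spleen replicate 1 or 2 (adjusted p from 0.0580 to 0.167). Of the 6 fits that leave out 1 library, Lss (0.41) was called only without KO spleen replicate 1 (otherwise adjusted p from 0.0517 to 0.120), and Ggps1 (0.22) only without KO spleen replicate 3 (otherwise 0.0522 to 0.157). Hsd17b7 lost its call without KO IELp replicate 1 or 2 or KO spleen replicate 2 or 3 (0.0521 to 0.0815), Mvk (0.59) without KO IELp replicate 1 or 3 or KO spleen replicate 1 or 3 (0.0523 to 0.0772), and Fdft1 (-0.37) without KO IELp replicate 1 or KO spleen replicate 1 or 3 (0.0681 to 0.109). Fasn (0.18) lost its call without KO IELp replicate 3 (adjusted p = 0.0696). Called in 1 such fit each were Fdps (1.36 without KO IELp replicate 1, adjusted p = 0.0441), Acly (-0.15 without KO IELp replicate 1, adjusted p = 0.0377) and Ebp (0.30 without KO spleen replicate 3, adjusted p = 0.0467).

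Among the members tested, the largest differences between the KO groups were those of the desaturase genes Scd1 and Scd2. Scd2 fell from 499.6 ± 6.71 to 131 ± 7.97 CPM (log2 change -1.82 ± 0.05, adjusted p = 1.76e-11 by edgeR), beside -1.88 between the control groups. Fads1 was lower (log2 change -0.63 ± 0.12), Acss2 was higher (log2 change 0.86 ± 0.14, adjusted p = 3.34e-04 by edgeR), and Scd1 was higher (log2 change 3.41 ± 0.52, adjusted p = 1.46e-04 by edgeR; 4.61 without KO IELp replicate 3). Fads2 was not tested for want of counts. Abca1 was lower in KO spleen cells than in KO IELp (log2 change -0.74 ± 0.09, adjusted p = 1.32e-05 by edgeR), Mylip was higher (log2 change 0.97 ± 0.09, adjusted p = 1.16e-06 by edgeR), and Abcg1, Nr1h2 and Nr1h3 did not pass. Of the other LXR partners and targets, 6 of 10 were higher and 1 lower, beside 22.6% and 22.4% of all genes tested. Arl4c, a small GTPase, rose from 8.72 ± 1.15 to 37.4 ± 3.24 CPM (log2 change 2.21 ± 0.13) and Ttc39b from 14.0 ± 2.42 to 44.6 ± 9.38 CPM (log2 change 1.78 ± 0.16). All 20 proliferation genes were lower in KO spleen cells, where 22.4% of all genes tested were.

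Genotype alone differed, by the labels, between KO and control IELp, and here the members moved little. Of 38 tested, 2 were higher and 5 lower, against 6.48% and 6.58% of 14629 genes, and 0 changed at least 2-fold. The median log2 fold change of the 19 pathway steps was -0.090 against -0.0054 for all genes. Mvd rose (20.9, 15.4 and 16.4 CPM in control and 25.9, 30.3 and 26.6 CPM in KO IELp; log2 change 0.68 ± 0.13, adjusted p = 0.00309 by edgeR), and Hmgcs1 rose slightly (log2 change 0.31 ± 0.07, adjusted p = 0.00925 by edgeR). Neither overlapped between the groups. The Hmgcs1 call was lost without KO IELp replicate 3 (0.25, adjusted p = 0.0632). Scd1 had too few counts to enter the test, with 23 in KO and 3 in control IELp (a ratio of 6.84 after scaling to total gene counts, with an exact 95% interval of 2.07 to 35.6 for counting error only), and 17 of the 23 lay in KO replicate 3.

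The lower members came from different steps. Acss2 fell from 47.9, 48.3 and 42.3 CPM to 24.4, 26.4 and 28.1 CPM (log2 change -0.79 ± 0.10, adjusted p = 8.68e-05 by edgeR), the smallest adjusted p of the members here. Fads1 fell from 46.2, 42.6 and 38.96 CPM to 25.3, 24.5 and 26.3 CPM (log2 change -0.72 ± 0.10, adjusted p = 1.83e-04 by edgeR). Both genes were clear of overlap by a wide margin, and both were called in every fit that left out 1 library. Ebp fell from 45 ± 5.84 to 29.6 ± 1.55 CPM (SD, n = 3; log2 change -0.58 ± 0.11, adjusted p = 0.00226 by edgeR). Stard4 (log2 change -0.54 ± 0.15, adjusted p = 0.0292 by edgeR) and Mvk (log2 change -0.64 ± 0.19, adjusted p = 0.0349 by edgeR) were called lower without overlap, but at few counts: of the 6 fits that leave out 1 library, Mvk was called only without control IELp replicate 3 (otherwise adjusted p from 0.0591 to 0.121) and Stard4 only without control IELp replicate 2 (otherwise 0.05004 to 0.111). Without KO IELp replicate 1, 2 or 3 or control IELp replicate 1, 3 members were lower in place of 5.

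Neither SREBP gene passed between KO and control IELp. Srebf1 (log2 change 0.09 ± 0.07), Srebf2 (log2 change -0.07 ± 0.08), Scap (log2 change -0.06 ± 0.07), Insig1 (log2 change -0.27 ± 0.19) and Insig2 (log2 change 0.00 ± 0.11) all had overlapping libraries. In the LXR branch 0 of 5 genes passed with edgeR, where the smallest adjusted p was 0.144, for Nr1h3 (log2 change 0.87 ± 0.37), and 2, Nr1h3 and Abca1, had an unadjusted p under 0.05. DESeq2 called 0 of them as well. The Abca1 libraries overlapped (log2 change -0.27 ± 0.12, adjusted p = 0.173 by edgeR). Abca1 was called lower without control IELp replicate 3 (-0.40, adjusted p = 0.0196), the control library with the lowest Abca1, and with no filter on low counts (-0.26, adjusted p = 0.0363). Smpdl3a, another LXR target, was lower (log2 change -0.35 ± 0.08, adjusted p = 0.00775 by edgeR). In the transport list Scarb1 (log2 change -0.47 ± 0.09) and Gramd1b, which moves cholesterol from the plasma membrane (log2 change -0.42 ± 0.10), fell, while Lrp8, a lipoprotein receptor (log2 change 1.09 ± 0.27), and Stard3 (log2 change 0.29 ± 0.08) rose. Cpt1a, which admits fatty acids to mitochondria for oxidation, fell from 172 ± 6.31 to 112 ± 5.53 CPM (log2 change -0.60 ± 0.06, adjusted p = 1.46e-05 by edgeR). Of 19 tested oxidation genes, 3 were lower and 1 higher, beside 6.58% and 6.48% of all genes tested. Proliferation genes were lower in 13 of 20, against the same 6.58%, and their part in the lower members was not tested.

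**Figure D5:**
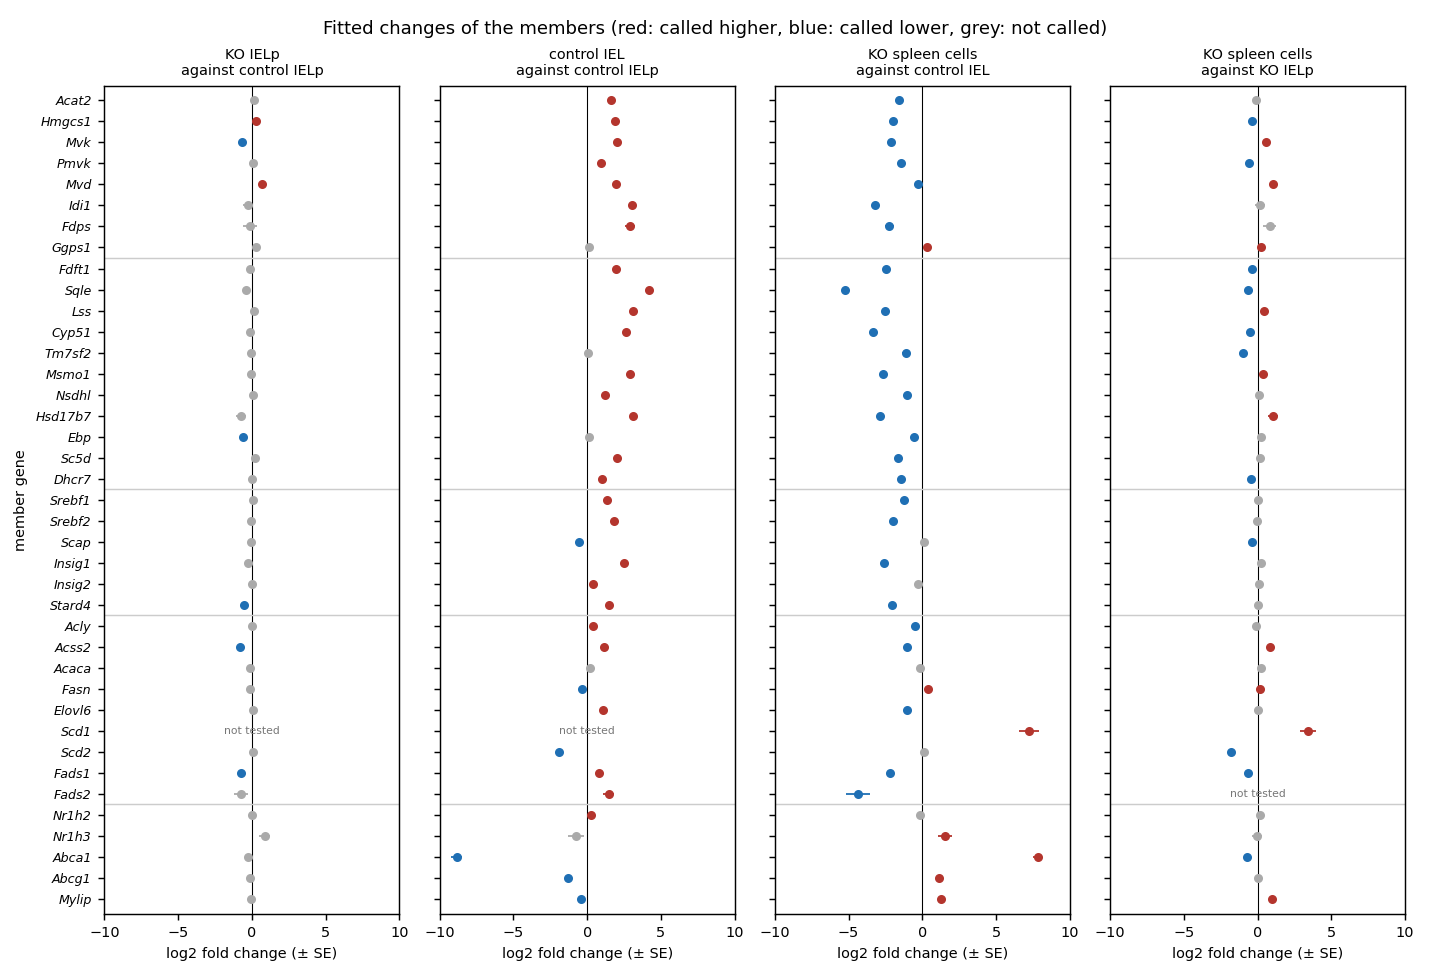
Log2 fold changes with SE (horizontal axes) of the 39 members (vertical axis, in the order of the pathway lists, separated by grey lines) in the 4 comparisons. Red points were called higher, blue lower and grey not called by edgeR. Most sterol genes lie right of 0 in control IELs against control IELp and left of 0 in KO spleen cells against control IELs. Ggps1 lies right of 0 in the latter too, at 0.31. On the opposite side in both are Scap, at -0.56 and 0.10, and Abca1, at -8.85 and 7.82.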

How the data were processed

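Gene expression was measured by RNA sequencing in 12 libraries of 4 groups. Per the labels' protocols, the kits were RNeasy Plus Micro for RNA, SMARTer Ultra Low Input for cDNA and Nextera XT for libraries, which were sequenced as paired reads of 76 bp. The submitters' processing notes name bcl2fastq 2.17, DESeq2, HTSeq, STAR and Trimmomatic and the build mm10. Annotation release and strand option: not given in the sources used here. The authors deposited counts per gene symbol, in 48663 rows of genes, and 5 further rows of reads outside genes, which held 58.8% to 61.0% of reads and were left out. Their second deposited table, named FPM, holds CPM of gene counts and served only as an alternative.

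Each pair of groups was fitted apart with edgeR 4.0.16 under R 4.3.3 by its quasi-likelihood test (filterByExpr, TMM factors, 2-sided, Benjamini-Hochberg over all genes tested, threshold 0.05) on the 6 libraries; the fit was tested on simulated counts. SEs are the log2 fold change over the square root of F. CPM were computed here from the deposited counts without TMM factors. The members and lists were chosen with earlier results of these data known. Values in every library are given for members past the threshold with at least a 2-fold change and 10 CPM in the higher group in any comparison, and for Srebf1, Srebf2, Insig1, Nr1h2, Nr1h3 and Abca1. From each pathway list up to 4 genes by smallest adjusted p may be named; markers, and Dntt, Lyz2 and the like among them, were named with values in view. Alternatives were median-of-ratios size factors, DESeq2 1.42.0, no low-count filter, 1 fit of 12 libraries, a block on the replicate number, limma 3.58.1 on log2 of the FPM values plus 1 or 0.1, and leaving out each library.

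Promoters are RefSeq's on GRCm38.p6, without entries for Fdft1, Sqle, Stard4, Fads1, Scd2, Fdps, Scd1 and Abcg1. Near-identical copies and exon overlaps came from the GENCODE mouse annotation, release M21, on the same build. No library was left out. One gene of the marker lists is not reported here.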

Additional observations from a re-analysis of the deposited data

How the results depend on the processing

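Of the members' calls, 33 of 38 in KO against control IELp, 35 of 38 in control IELs against control IELp, 32 of 39 in KO spleen cells against control IELs and 27 of 38 in KO spleen cells against KO IELp were the same under all alternatives run, and 0 called members reversed. Counts of members, or ranges of counts, in which at least 1 count moved by over 1.5 times were these. For KO against control IELp, leaving out 1 library gave 1 to 2 members higher and 3 to 5 lower. For KO spleen cells against KO IELp, it gave 6 to 8 higher, and limma on log2 FPM plus 1 or plus 0.1 gave 6 and 6 higher in place of 10. Limma on FPM moved the median of all genes to -0.21 in control IELs against control IELp, with 34.7% of called genes higher in place of 49.2%. In KO spleen cells these values were 0.11 with 59.4% in place of 49.9% against control IELs, and -0.10 with 35.7% in place of 50.3% against KO IELp. Other single calls changed with DESeq2 (Mvk lost, adjusted p = 0.0872, and Ggps1 gained, 0.0423, in KO IELp) or with 1 fit of all 12 libraries (Stard4 lost in KO IELp, 0.0551); the cause was not tested. In KO spleen cells against KO IELp, DESeq2 lost Mvk, Ggps1 and Sqle (0.0513 to 0.0791), no filter lost Ggps1 (0.0802) and the fit of 12 libraries lost Fasn (0.211).

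With the replicate number as a block, 2 members were higher and 4 lower in KO against control IELp (Mvk lost, adjusted p = 0.0606), 27 and 6 in control IELs against control IELp, 7 and 26 in KO spleen cells against control IELs (Mvd lost, 0.0734), and 9 and 11 in KO spleen cells against KO IELp (Ggps1 lost, 0.0540). Correlations of same-numbered libraries lay between -0.055 and 0.135, and in no comparison did every library correlate best with its own number, so the numbers are not shown to pair the samples.

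At 3 libraries a group, the members with a mean under 10 CPM in all 4 groups (Fdps, Tm7sf2, Fads2, Nr1h3 and Scd1) had low counts in every group, which limits their precision.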
